A study of Mus musculus with 4 samples.

Results

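The 36 genes described here are Nfe2l2, which encodes the transcription factor NRF2, and textbook targets of NRF2, chosen by name from the 56953 genes counted. Each of the 36 names matched 1 row of the count table. Expression was measured in the dorsal skin of C57BL/6J mice of wild type genotype, which received 10 µM NEDD8i (2 libraries) or the solvent DMSO (2 control libraries) on the skin for 3 days. NEDD8i is known here only by that label, and NEDD8 is a small protein related to ubiquitin. The age and sex of the mice, and whether replicates came from separate mice, are not given in the labels, so the p-values measure only the spread between these libraries, which may be technical.

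NRF2 is controlled mainly by how fast its protein is destroyed. KEAP1 holds NRF2 on a ubiquitin ligase built on cullin 3, and cullins need NEDD8 attached to them for full activity. Electrophiles and oxidants modify KEAP1, so that NRF2 escapes, pairs with a small MAF protein and binds antioxidant response elements, short DNA motifs near genes for glutathione, thioredoxin, detoxification and NADPH enzymes. In epidermis these genes protect keratinocytes, the cells that build the skin barrier, from ultraviolet light and reactive chemicals. Transcript counts do not measure the amount of NRF2 protein.

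Libraries held 5955627 and 5639791 counts with DMSO and 8856572 and 8833217 with NEDD8i. Outside 3 ribosomal RNA genes lay 2824291 and 2287839 of them with DMSO and 3654442 and 3379890 with NEDD8i. Both NEDD8i libraries were thus deeper, and raw counts given below are not adjusted for this. Levels are given as CPM, counts scaled to the library total after adjustment by the TMM method, and are not compared between genes. All 13 keratinocyte markers passed the filter on low counts, and their sum was 2.74% to 4.26% of reads outside ribosomal RNA. Krt14, a basal keratin, was at 1037 and 2305 CPM with DMSO and 2549 and 2155 CPM with NEDD8i. Sfn (log2 fold change of NEDD8i relative to DMSO 1.13), Ly6d (1.21) and Perp (0.30) were higher in both NEDD8i libraries. Krt10 (-0.68) and Krt15 (-0.55) were lower in both, the other keratinocyte markers overlapped between groups, and 0 of the 13 had an adjusted p under 0.05 in edgeR. The 9 endothelial markers together had 6 to 36 counts per library, although the skin was taken at full thickness, per the labels. Of all reads outside ribosomal RNA, hair shaft and inner root sheath markers took 1.78% and 0.0121% in DMSO libraries 1 and 2 and 0.00854% and 0.121% in NEDD8i libraries 1 and 2. None of the 16 hair markers, led by Tchh and Krt25, passed the test. DMSO replicate 1 therefore stood apart, and the members' values that moved most without it are given both ways. Skin is a mixture of cells, and fewer cells of a type cannot be told apart from less RNA per cell.

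The comparison of NEDD8i with DMSO asks whether the transcripts of NRF2 targets differed after the treatment. With edgeR's quasi-likelihood test and Benjamini-Hochberg adjustment over all genes, 0 of the 32 members with enough reads to be tested had an adjusted p under 0.05, where 0.782% of 11388 tested genes did (0.667% higher and 0.114% lower). Srxn1 (sulfiredoxin), Gsta4 (a glutathione transferase), Sqstm1 (the autophagy receptor p62) and Hmox1 (heme oxygenase) had the largest positive log2 fold changes among the members, from 1.28 to 2.56. Nqo1, the quinone reductase often used as a readout of NRF2, had a log2 fold change of -0.64. Of the 5 genes listed under NADPH supply, 4 had log2 fold changes under 0, although Tkt was at -0.03. In this list Taldo1 and Tkt recycle sugar phosphates and do not themselves produce NADPH. The groups overlapped for all of the 5 but Me1. The 36 members together took 0.285% (DMSO replicate 1), 0.244% (DMSO replicate 2), 0.342% (NEDD8i replicate 1) and 0.295% (NEDD8i replicate 2) of reads outside ribosomal RNA.

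Counted over the members, the log2 fold change was above 0 for 20 of 32 and below 0 for 12, and its median was 0.12. Over all tested genes 49.9% were above 0, 50.1% were below it, and the median was -0.0032. At an unadjusted p under 0.05 there were 6 members (18.8%), 4 higher and 2 lower, where 16.5% of all tested genes met that limit, 8.62% higher and 7.87% lower. Both NEDD8i libraries lay above both DMSO libraries for 9 members and below them for 6, together 46.9%, against 47.9% of all tested genes (25% above and 22.9% below). These shares were close to the background and are no result about the members. DESeq2 called 3 of the members, Srxn1, Gsta4 and Sqstm1, all higher, where it called 3.74% of genes. limma-voom called 0 members and 0.237% of genes. Other settings of edgeR called 0 members with RLE factors (0.711% of genes), library sizes without TMM (0.413%), a fixed filter (0.733%), no robust option (0.421%), ribosomal RNA genes left out (0.676%) or thinning to 1 depth (1.07%). With no filter on low counts 4 members passed, Hmox1 besides those of DESeq2 (2.97% of genes), and with a replicate block 2 passed, Srxn1 and Sqstm1 (2.54%). The members untested for low counts were Gsta1, Gsta3, Gstp1 and Osgin1, and their counts are given with their groups.

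**Figure D1:**
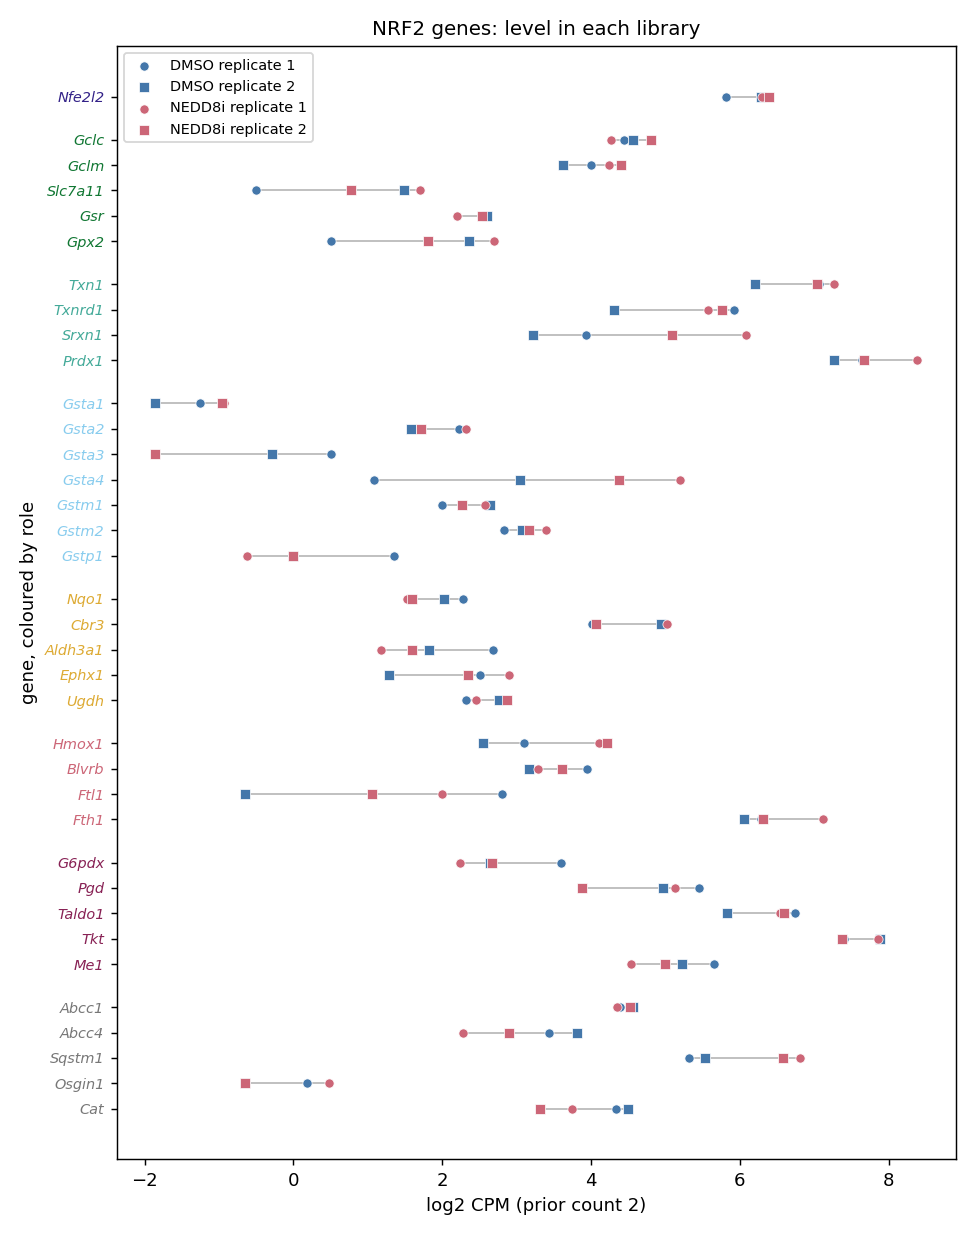
Level of each of the 36 genes on the log2 CPM scale (x axis, prior count of 2) in the 4 libraries, with genes in rows coloured by role; blue points are DMSO and red points NEDD8i, circles replicate 1 and squares replicate 2, and grey lines span the 4 values. Of the 32 genes tested, both red points lie to the right of both blue points for 9, among them Srxn1, Gsta4, Sqstm1 and Hmox1. They lie to the left for 6, and the groups overlap for 17. Among all tested genes 47.9% had groups that did not overlap.

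Nfe2l2 (ENSMUSG00000015839.7, chromosome 2, 75505857 to 75534985, minus strand, taken to be build GRCm39, as for all coordinates of the count table) was at 56.1 and 77.8 CPM in DMSO replicates 1 and 2 and at 78.7 and 83.9 CPM in NEDD8i replicates 1 and 2. The groups did not overlap, but DMSO replicate 2 and NEDD8i replicate 1 were nearly equal. The log2 fold change was 0.28 ± 0.29 (SE; adjusted p in edgeR = 0.695), with a 95% interval of -0.38 to 0.94, and it was 0.05 without DMSO replicate 1.

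Thioredoxin and sulfiredoxin genes supply the enzymes that reduce oxidized peroxiredoxins, which break down hydrogen peroxide. Srxn1 (ENSMUSG00000032802.9, chromosome 2, 151947444 to 151953296, plus strand) encodes sulfiredoxin, which restores peroxiredoxins whose active cysteine has been overoxidized. It was at 14.95 and 9.02 CPM in DMSO replicates 1 and 2 and at 67.7 and 33.6 CPM in NEDD8i replicates 1 and 2. Both NEDD8i libraries were above both DMSO libraries, although replicate 1 was the higher library in each group. The means were 12.0 ± 4.19 CPM for DMSO and 50.7 ± 24.1 CPM for NEDD8i (mean ± SD over 2 libraries, n = 2). The log2 fold change was 2.07 ± 0.42 (SE; adjusted p in edgeR = 0.0656), with a 95% interval of 1.12 to 3.03, and the gene ranked 151 of 11388 by p. Srxn1 narrowly missed the threshold. It passed with DESeq2 (adjusted p = 0.000791), which called 3.74% of all genes, against 0.782% in the main fit. It also passed with no filter on low counts, the replicate block or the crossed block, which likewise called more genes than the main fit. The remaining settings that kept every library left it past no threshold, among them limma-voom (adjusted p = 0.117). Its log2 fold change was 2.47 without DMSO replicate 1 and 1.78 without DMSO replicate 2. It was 1.50 without NEDD8i replicate 1 and 2.48 without NEDD8i replicate 2.

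The other 3 genes of this system had smaller positive log2 fold changes that did not pass. Prdx1, a peroxiredoxin, was at 199 and 153 CPM with DMSO and 334 and 202 CPM with NEDD8i, which gave a log2 fold change of 0.61 ± 0.35 (SE; adjusted p in edgeR = 0.437). DMSO replicate 1 and NEDD8i replicate 2 were nearly equal, so that the separation of the groups rested on NEDD8i replicate 1. Txn1 (thioredoxin) was at 133 and 73.6 CPM with DMSO and 154 and 130.3 CPM with NEDD8i, with a log2 fold change of 0.46 ± 0.35 (SE). Txnrd1, the reductase that recharges thioredoxin with NADPH, was at 60.4 and 19.5 CPM with DMSO and 47.3 and 53.7 CPM with NEDD8i, which gave a log2 fold change of 0.34 ± 0.46 (SE; adjusted p in edgeR = 0.781). The Txnrd1 levels of the DMSO libraries lay on either side of both NEDD8i libraries. Its log2 fold change was 1.36 without DMSO replicate 1 and -0.24 without DMSO replicate 2, so neither direction can be read from it.

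Because Srxn1 had the smallest p of the members, the 250 bases before its RefSeq start are shown, from chr2:152105274-152105523 on the plus strand of GRCm38.p6, a different build from that of the count table. Capitals mark matches on either strand to TGAGNNNGC, a form of the antioxidant response element, or to TGANTCA, the site of AP-1.
Srxn1: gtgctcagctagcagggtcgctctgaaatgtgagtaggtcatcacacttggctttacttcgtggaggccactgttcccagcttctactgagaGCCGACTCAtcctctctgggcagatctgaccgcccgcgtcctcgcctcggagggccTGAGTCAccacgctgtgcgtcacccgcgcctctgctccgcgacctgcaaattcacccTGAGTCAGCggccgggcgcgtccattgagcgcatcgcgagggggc
Counted from the start to the first base of a match, the match at position -45 is of both kinds at once, the match at -158 is of the element form alone, and the match at -102 is of the AP-1 kind alone. A match to the core TGACNNNGC, searched in all members, lay 29 bases past the start and is not shown. A match describes letters and does not show binding.

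The element core used for the search was TGACNNNGC on both strands, in windows from 250 bases before to 50 after the RefSeq start. Windows were found for 30 members, and not for Gclc, Gsr, Gsta4, Aldh3a1, Hmox1 and Abcc1. The core occurred for 11 of the 30 members (36.7%), against 14% of 27025 genes with a window. The TGAGNNNGC form, added after the Srxn1 window was seen, occurred for 8 members (26.7%) against 19.8% of genes, and TGANTCA for 5 members (16.7%) against 8.97%. The core overlapped TGANTCA in Prdx1 and Me1, and the second form did so in Srxn1, Gstp1 and Osgin1. The 4 stretches shown next hold the core or its reverse complement in capitals with 10 bases on each side, and come from members with log2 fold changes on either side of 0.
Prdx1 chr4:116685456-116685484 plus strand: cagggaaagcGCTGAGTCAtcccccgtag
Gclm chr3:122245413-122245441 plus strand: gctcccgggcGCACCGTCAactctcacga
Me1 chr9:86695902-86695930 minus strand: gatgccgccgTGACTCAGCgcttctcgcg
Abcc4 chr14:118706226-118706254 minus strand: gccccgagagGCGGGGTCAgggcgggccg
Prdx1 and Gclm had log2 fold changes of 0.61 and 0.51, and Me1 and Abcc4 had -0.68 and -1.04. The median log2 fold change was 0.21 over the 10 tested members with a core in the window and 0.16 over the 16 tested members with a window but no core. The medians with and without the core were close. Enhancers farther from the start, such as those known for Hmox1, were not searched.

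Glutathione synthesis draws on cystine, which Slc7a11 imports, and on the 2-subunit ligase of Gclc and Gclm, and glutathione is kept reduced by Gsr. Gclm, the modifier subunit, was at 15.7 and 12.1 CPM with DMSO and 18.7 and 20.8 CPM with NEDD8i, with no overlap between groups and a log2 fold change of 0.51 ± 0.33 (SE; adjusted p in edgeR = 0.496). Gclc, the catalytic subunit, was at 21.5 and 23.3 CPM with DMSO and 18.9 and 27.6 CPM with NEDD8i, and the NEDD8i libraries lay on either side of both DMSO libraries (log2 fold change 0.06, SE 0.32, adjusted p in edgeR = 0.951, 95% interval -0.67 to 0.79). Slc7a11 had few reads, 3 and 14 counts with DMSO and 24 and 12 with NEDD8i, which gave a log2 fold change of 0.61 ± 0.88 (SE; adjusted p in edgeR = 0.790). Its 95% interval of -1.39 to 2.62 shows that neither a rise nor a fall was detectable with these libraries. The interval includes the spread between libraries as well as counting error, and without DMSO replicate 1 the value was -0.21. Gsr, glutathione reductase, was at 5.55 and 5.77 CPM with DMSO and 4.33 and 5.51 CPM with NEDD8i, slightly lower in both NEDD8i libraries (log2 fold change -0.20, SE 0.44). Gpx2, a glutathione peroxidase of epithelia, had 8 and 27 counts with DMSO and 50 and 27 with NEDD8i, and DMSO replicate 1 was the low library. Its log2 fold change of 0.67 ± 0.71 (SE) was -0.063 without that library. None of the 5 genes was past the threshold.

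Glutathione S-transferases attach glutathione to reactive compounds. Gsta4 (ENSMUSG00000032348.7, chromosome 9, 78099229 to 78116631, plus strand) is the member that acts on 4-hydroxynonenal, an aldehyde from oxidized lipids. It was at 1.85 and 7.94 CPM in DMSO replicates 1 and 2 and at 36.4 and 20.5 CPM in NEDD8i replicates 1 and 2. Both NEDD8i libraries were above both DMSO libraries, and the lower of the NEDD8i values exceeded the higher of the DMSO values by more than the DMSO libraries differed. The means were 4.90 ± 4.30 CPM for DMSO and 28.4 ± 11.2 CPM for NEDD8i (mean ± SD over 2 libraries, n = 2). The log2 fold change was 2.56 ± 0.62 (SE; adjusted p in edgeR = 0.105), with a 95% interval of 1.13 to 3.99. It was 1.82 without DMSO replicate 1, the low library, and 3.95 without DMSO replicate 2.

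The other transferases had smaller differences or few reads. Gstm2 was at 6.84 and 8.12 CPM with DMSO and 10.3 and 8.74 CPM with NEDD8i (log2 fold change 0.35, SE 0.38), and Gstm1 and Gsta2 had log2 fold changes of 0.09 and 0.10 with overlapping groups. Gsta3 had 8 and 3 counts with DMSO and 0 in both NEDD8i libraries. That is 4.8-fold lower if the NEDD8i group is set at a floor of 3 counts. For counting error alone, the exact 95% interval of its NEDD8i to DMSO ratio reached 0.305. Gstp1 had 16 and 4 counts with DMSO and 3 and 6 with NEDD8i, and the NEDD8i to DMSO ratio of 0.344 had an exact 95% interval from 0.138 to 0.79, which covers counting error only and not the spread between libraries. Gsta1 had 0 to 2 counts per library. Counting may have dropped or divided reads that fit close copies equally well, which makes the low counts of Gstp1 uncertain. Its copy Gstp2 had 0 counts, and Gstp3 0 to 1 per library.

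**Figure D2:**
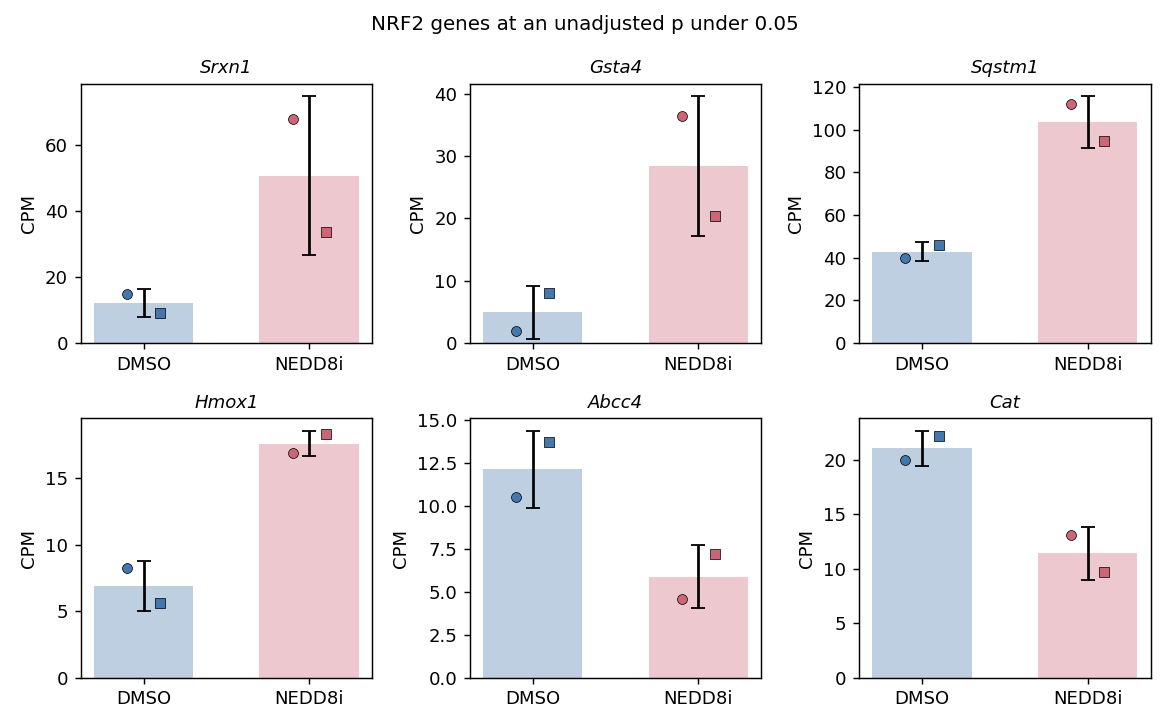
CPM (y axis, from 0) of the 6 genes at an unadjusted p under 0.05, by treatment; bars are means of 2 libraries, error bars the SD, circles replicate 1 and squares replicate 2. The groups do not overlap for any of the 6, with 4 genes higher after NEDD8i and 2 lower, and none passed the adjusted threshold.

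Heme oxygenase breaks heme down to biliverdin, iron and carbon monoxide, biliverdin reductase takes the next step, and ferritin stores the iron. Hmox1 (ENSMUSG00000005413.9, chromosome 8, 75820249 to 75827217, plus strand) was at 8.26 and 5.59 CPM in DMSO replicates 1 and 2 and at 16.95 and 18.3 CPM in NEDD8i replicates 1 and 2. The NEDD8i libraries were close to each other and well above both DMSO libraries. The means were 6.93 ± 1.89 CPM for DMSO and 17.6 ± 0.964 CPM for NEDD8i (mean ± SD over 2 libraries, n = 2), and the log2 fold change was 1.34 ± 0.37 (SE; adjusted p in edgeR = 0.131), with a 95% interval of 0.50 to 2.18. It passed without DMSO replicate 1 (adjusted p in edgeR = 0.00694, log2 fold change 1.64) and in none of the other 3 fits with 1 library left out. Macrophages also express Hmox1, and the 13 monocyte and macrophage markers took 0.00701% and 0.00551% in DMSO libraries 1 and 2 and 0.0109% and 0.00808% in NEDD8i libraries 1 and 2 of reads outside ribosomal RNA. Of these markers 7 were tested, 5 of them with a positive log2 fold change and 0 past the threshold, and Marco had no count in any library. C1qa had 35 and 30 counts with DMSO and 125 and 99 with NEDD8i (log2 fold change 1.39, SE 0.38, adjusted p in edgeR = 0.131). Csf1r (-0.22) and Fcgr3 (-0.69) were the 2 under 0. Among those untested, Cd14 had 0 and 0 counts with DMSO and 67 and 5 with NEDD8i, and Adgre1 32 and 2 against 10 and 2. The part of macrophage reads in the Hmox1 difference was not tested.

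Fth1, the ferritin heavy chain, was at 77.6 and 66.4 CPM with DMSO and 139 and 79.0 CPM with NEDD8i. NEDD8i replicate 2 was barely above DMSO replicate 1, and the log2 fold change was 0.60 ± 0.34 (SE; adjusted p in edgeR = 0.433), or 0.15 without NEDD8i replicate 1. Ftl1, the ferritin light chain, had 47 and 2 counts with DMSO and 30 and 15 with NEDD8i, and its log2 fold change of -0.39 ± 0.99 (SE) turned to 2.86 without DMSO replicate 1. Its pseudogene copy Ftl1-ps1 had 0 to 4 counts, and how reads that fit both were handled is not given. Blvrb, a biliverdin reductase that is also abundant in red cells, was at 15.1 and 8.66 CPM with DMSO and 9.53 and 12.0 CPM with NEDD8i (log2 fold change -0.15, SE 0.40). Red cell markers, chiefly Hbb-bs and Hbb-bt, took 0.154% and 0.0414% in DMSO libraries 1 and 2 and 0.144% and 0.0105% in NEDD8i libraries 1 and 2 of reads outside ribosomal RNA, so blood RNA varied within both groups. Of the 8 markers found 5 were tested, with 0 past the threshold, and Epb42 was at 0 in all libraries. The part of blood RNA in the Blvrb and Ftl1 values was not tested.

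The enzymes that act on quinones, carbonyls, aldehydes and epoxides had 0 of 5 genes past the threshold, and none had both NEDD8i libraries above both DMSO libraries. Nqo1, which reduces quinones to hydroquinones, was at 4.56 and 3.79 CPM with DMSO and 2.60 and 2.75 CPM with NEDD8i, from 21 to 32 counts per library. Both NEDD8i libraries were lower, with a log2 fold change of -0.64 ± 0.52 (SE; adjusted p in edgeR = 0.599) and a 95% interval of -1.81 to 0.53. That interval leaves out a doubling, which is 1 on the log2 scale. Aldh3a1, an aldehyde dehydrogenase, was likewise lower in both NEDD8i libraries, at 6.12 and 3.25 CPM with DMSO and 1.98 and 2.75 CPM with NEDD8i (log2 fold change -0.99, SE 0.56, adjusted p in edgeR = 0.433).

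The remaining 3 genes of this group overlapped between treatments. Cbr3, a carbonyl reductase, was at 15.8 and 30.3 CPM with DMSO and 32.3 and 16.5 CPM with NEDD8i, with 1 high and 1 low library in each group (log2 fold change 0.08, SE 0.43, adjusted p in edgeR = 0.946). Ephx1, the microsomal epoxide hydrolase, was at 5.41 and 2.17 CPM with DMSO and 7.18 and 4.79 CPM with NEDD8i (log2 fold change 0.64, SE 0.55). Ugdh, which makes the sugar acid donor for glucuronidation, was at 4.70 and 6.50 CPM with DMSO and 5.20 and 7.06 CPM with NEDD8i (log2 fold change 0.14, SE 0.44).

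NADPH is the reducing power behind both the glutathione and the thioredoxin systems. G6pdx, the first NADPH-producing step of the pentose phosphate pathway, was at 11.8 and 5.95 CPM with DMSO and 4.45 and 6.10 CPM with NEDD8i (log2 fold change -0.76, SE 0.47). Pgd, the next such step, was at 43.6 and 31.0 CPM with DMSO and 34.6 and 14.4 CPM with NEDD8i (log2 fold change -0.61, SE 0.42). The groups overlapped for both genes. Me1, cytosolic malic enzyme, was at 49.99 and 37.0 CPM with DMSO and 22.9 and 31.5 CPM with NEDD8i, lower in both NEDD8i libraries (log2 fold change -0.68, SE 0.31, adjusted p in edgeR = 0.329). A330041J22Rik overlaps Me1 on the opposite strand and had 0 to 4 counts per library. Taldo1 and Tkt encode enzymes that recycle sugar phosphates. Taldo1 was at 106 and 56.3 CPM with DMSO and 92.7 and 96.6 CPM with NEDD8i, and only DMSO replicate 2 was low (log2 fold change 0.22, SE 0.35). Tkt was at 168 and 237 CPM with DMSO and 231 and 165 CPM with NEDD8i, with 1 high and 1 low library in each group (log2 fold change -0.03, SE 0.33, adjusted p in edgeR = 0.977). The group median was -0.61, and 0 of 5 genes passed.

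**Figure D3:**
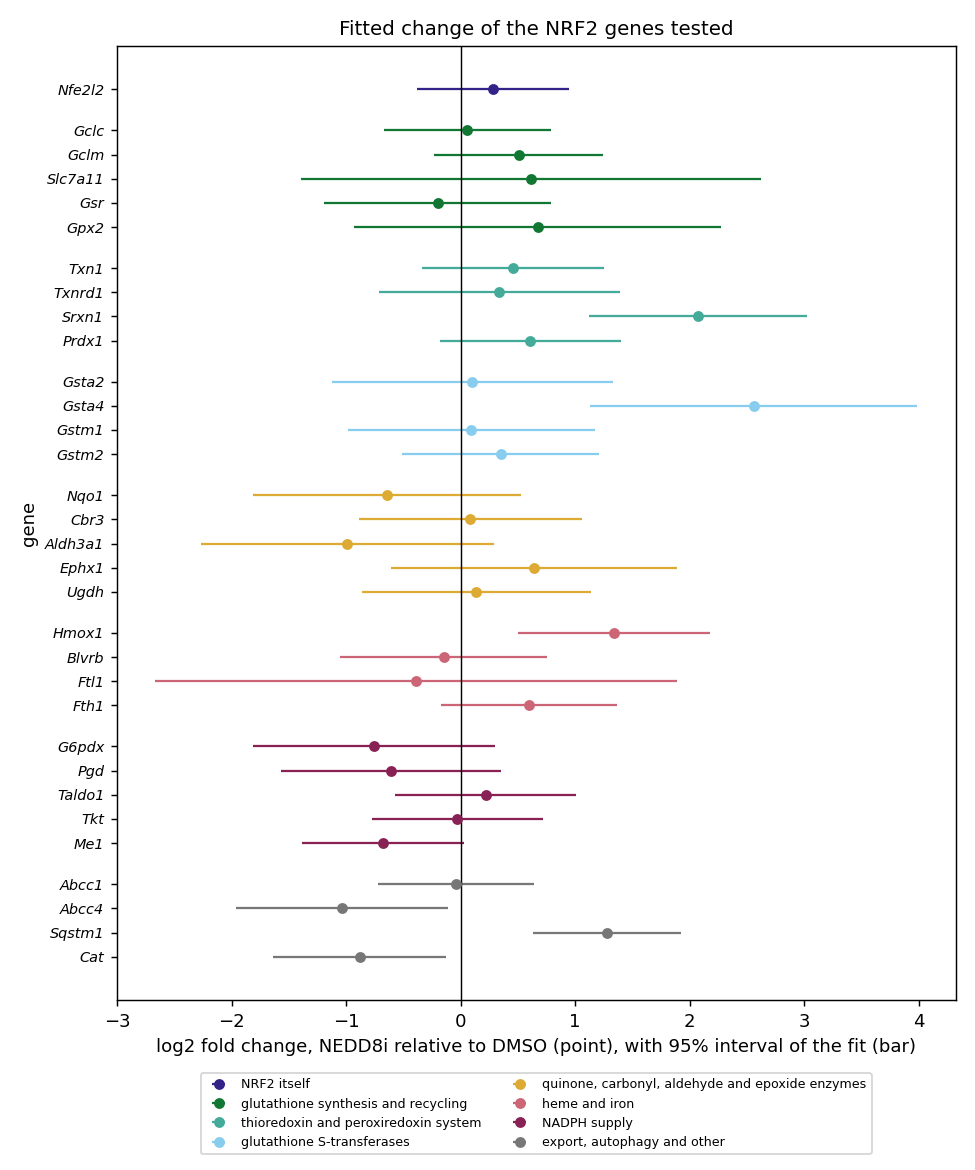
Log2 fold change of NEDD8i relative to DMSO (x axis) for the 32 genes tested, as points with the 95% interval of the edgeR fit, coloured by role. The intervals of Srxn1, Gsta4, Sqstm1 and Hmox1 lie above 0 and those of Abcc4 and Cat below it, before any adjustment over genes, and the intervals of the other 26 genes include 0.

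Sqstm1 (ENSMUSG00000015837.16, chromosome 11, 50090193 to 50101654, minus strand) encodes p62, an autophagy receptor that also binds KEAP1. It was at 39.6 and 45.8 CPM in DMSO replicates 1 and 2 and at 112 and 94.9 CPM in NEDD8i replicates 1 and 2. The groups were far apart relative to the spread within either, with 42.7 ± 4.41 CPM for DMSO and 104 ± 12.2 CPM for NEDD8i (mean ± SD over 2 libraries, n = 2). The log2 fold change was 1.28 ± 0.28 (SE; adjusted p in edgeR = 0.0808), with a 95% interval of 0.63 to 1.92, and it stayed between 1.16 and 1.41 when any 1 library was left out. The gene Mrnip overlaps it on the opposite strand and had 2 to 6 counts per library.

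Abcc4 and Cat went the other way. Abcc4, an exporter of conjugates and of prostaglandins, was at 10.5 and 13.7 CPM with DMSO and 4.58 and 7.18 CPM with NEDD8i, which gave a log2 fold change of -1.04 ± 0.41 (SE; adjusted p in edgeR = 0.252). Cat, catalase, which splits hydrogen peroxide in peroxisomes, was at 19.9 and 22.2 CPM with DMSO and 13.1 and 9.70 CPM with NEDD8i, which gave a log2 fold change of -0.88 ± 0.33 (SE; adjusted p in edgeR = 0.235). Neither passed the threshold. With 1 library left out they were lower by 0.74 to 1.41 (Abcc4) and 0.70 to 1.10 (Cat) on the log2 scale. That the sign held was nearly fixed in advance, because the groups of both genes do not overlap. Abcc1, a related exporter of glutathione conjugates, was at 20.6 and 23.3 CPM with DMSO and 20.0 and 22.6 CPM with NEDD8i (log2 fold change -0.04, SE 0.30). Osgin1, a growth inhibitor induced by oxidative stress, had 2 to 9 counts per library.

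Markers of other cells also differed between the groups beside Srxn1, Gsta4, Sqstm1 and Hmox1. The 11 dermal fibroblast markers together took 0.0352% and 0.0249% in DMSO libraries 1 and 2 and 0.0343% and 0.0474% in NEDD8i libraries 1 and 2 of reads outside ribosomal RNA, so their sum overlapped between groups. Of these 8 were tested, 7 had a log2 fold change above 0 and 1 passed, Dpt (dermatopontin, a matrix protein), which rose from 7 and 3 counts with DMSO to 56 and 73 with NEDD8i, with an edgeR adjusted p of 0.0446 and a log2 fold change of 3.29 ± 0.58 (SE). The collagen gene Col1a2 had 14 and 14 counts with DMSO and 53 and 138 with NEDD8i, with no overlap. Vim and Sparc held the most reads of the list, and Dcn, with 345 and 9 counts with DMSO and 135 and 173 with NEDD8i, overlapped between groups. The 11 neutrophil markers took 0.00439% and 0.00498% in DMSO libraries 1 and 2 and 0.0281% and 0.0209% in NEDD8i libraries 1 and 2, higher in both NEDD8i libraries. Most of these reads were S100a8 and S100a9, which inflamed keratinocytes also make. Cxcr2, a chemokine receptor and another tested marker, had 11 and 33 counts with DMSO and 75 and 44 with NEDD8i, and its groups overlapped in CPM (log2 fold change 0.97, SE 0.63, adjusted p in edgeR = 0.501). S100a8 rose with a log2 fold change of 2.28 ± 0.37 (SE) and an edgeR adjusted p of 0.0347. The defining neutrophil genes Ly6g, Camp, Ltf, Ngp, Mpo and Elane had no count in any library, and 3 of the 11 markers were tested. Of the melanocyte markers 0 of 4 tested passed, and of the skeletal muscle markers 0 of 9. The part of the fibroblast, S100a8 and macrophage reads in the 4 members' values was not tested.

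Adipocytes and sebaceous glands express catalase and malic enzyme, so their markers were read beside Cat and Me1. The 10 adipocyte markers took 0.0309% and 0.0236% in DMSO libraries 1 and 2 and 0.0101% and 0.0100% in NEDD8i libraries 1 and 2 of reads outside ribosomal RNA, lower in both NEDD8i libraries. These reads were mostly Acsl1, which other cells express too, and Fabp4, which had 493 and 1 counts with DMSO and 43 and 25 with NEDD8i, while the defining gene Adipoq had 0 in 3 libraries and 2 in the other. The 17 sebaceous gland markers took 0.211% and 0.110% in DMSO libraries 1 and 2 and 0.105% and 0.140% in NEDD8i libraries 1 and 2, overlapping between groups, with Krt79 and Scd1 holding most, and Pparg had 0 to 1 counts per library. Of the adipocyte markers 4 were tested, 1 with a log2 fold change above 0, and 0 passed. Of the sebaceous markers 14 were tested and 0 passed, with 8 above 0, 6 with both NEDD8i libraries above both DMSO libraries and 1 with both below. The 6 were Awat1 (log2 fold change 1.83), Elovl3 (1.09), Far2 (0.86), Mc5r (0.81), Cidea (0.63) and Plin2 (0.48), which serve lipid synthesis or storage or mark the gland, while Krt79 had 3642 and 933 counts with DMSO and 1567 and 1554 with NEDD8i. The gene with both NEDD8i libraries below was Dgat2 (log2 fold change -1.09, SE 0.34). It was 1 of 6 tested sebaceous markers under 0, with Krt79 (-0.86) and Acsbg1 (-0.55) among the others. The sebaceous markers thus went in both directions. The part of adipocyte and sebaceous gland reads in the lower Cat and Me1 values was not tested.

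**Figure D4:**
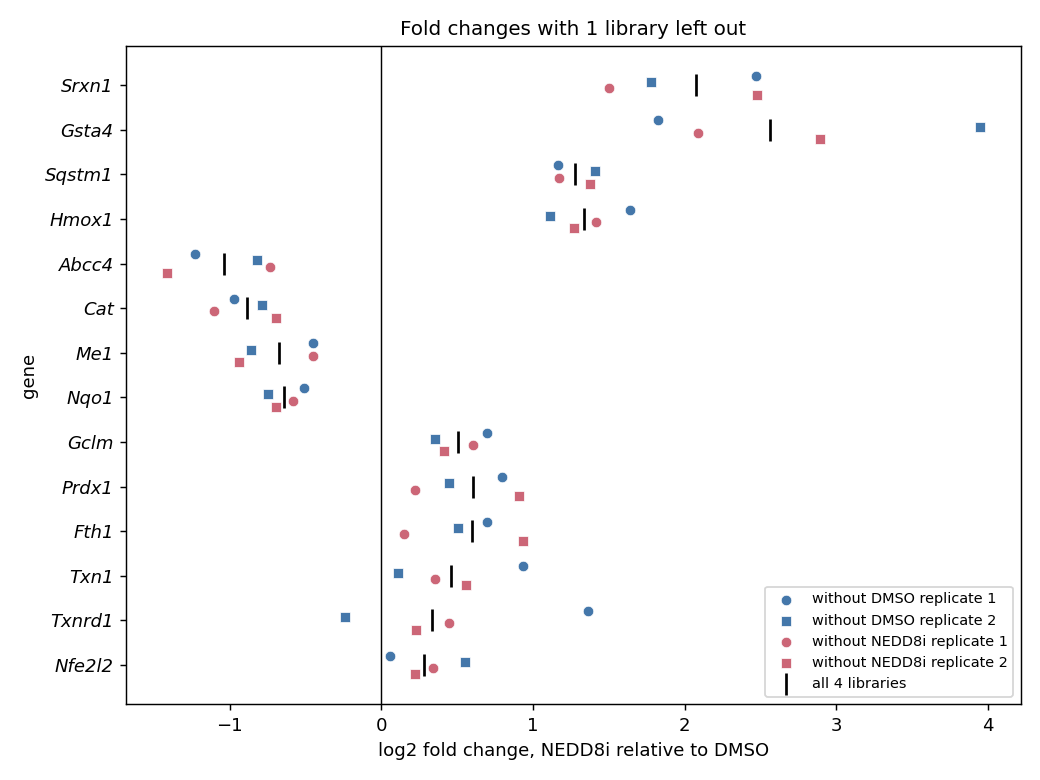
Log2 fold change of NEDD8i relative to DMSO (x axis) for 14 of the genes, with all 4 libraries (black bar) and with each library left out in turn (blue for a DMSO and red for a NEDD8i library, circles replicate 1 and squares replicate 2). Srxn1, Gsta4, Sqstm1, Hmox1, Abcc4 and Cat keep their sign throughout, which was nearly fixed in advance because their groups do not overlap. Txnrd1, whose groups overlap, moves from -0.24 to 1.36 with the choice of DMSO library.

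How many members passed depended on which libraries were used. Without DMSO replicate 1, the hair-rich library, 7 of 32 members passed, namely Srxn1, Gsta4, Sqstm1, Hmox1, Txnrd1 and Txn1 as higher and Abcc4 as lower, while 10.4% of all genes passed in that fit. Without DMSO replicate 2, 3 members passed as higher (Srxn1, Gsta4 and Sqstm1), with 10.7% of all genes. Without NEDD8i replicate 1 there were 0 (0.368% of genes), and without NEDD8i replicate 2 there was 1, Srxn1 (0.387%). In such a fit 1 group has a single library, which is assumed to vary like the other group, so these counts show only how far the calls depend on single libraries. Among members that did not pass in any of these fits, leaving out DMSO replicate 1 brought the log2 fold change of Ephx1 from 0.64 to 1.45, of Taldo1 from 0.22 to 0.74 and of Blvrb from -0.15 to 0.30. It brought that of G6pdx from -0.76 to -0.18, of Aldh3a1 from -0.99 to -0.46, of Cbr3 from 0.08 to -0.33, of Gstm1 from 0.09 to -0.23 and of Gsta2 from 0.10 to 0.49. Txn1, which passed in that fit, went from 0.46 to 0.94. The median log2 fold change of the members ran from 0.02 without DMSO replicate 1 to 0.22 without NEDD8i replicate 2.

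**Figure D5:**
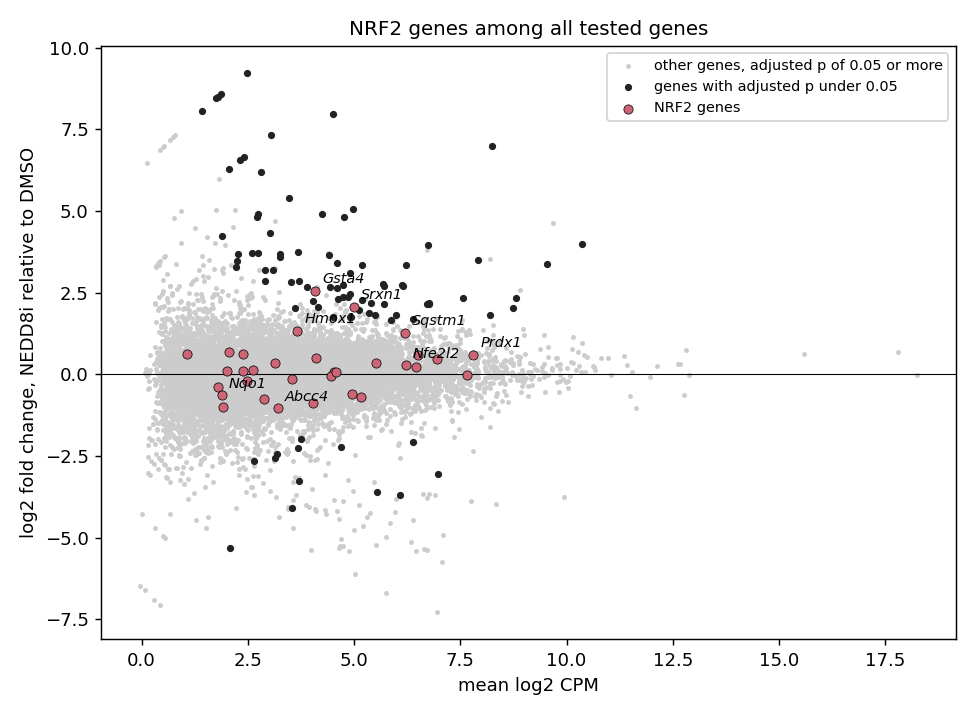
Log2 fold change of NEDD8i relative to DMSO (y axis) against mean log2 CPM (x axis) for the 11388 genes tested; grey points did not pass an adjusted p of 0.05, black points did, and red points are the NRF2 genes. Most red points lie within the grey cloud, and Gsta4 and Srxn1 lie at its upper edge, among the lowest of the black points.

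Of 21 genes that control NRF2, 19 were tested and 0 passed with edgeR, with a median log2 fold change of 0.15. Keap1, the NRF2 sensor, was at 42.9 and 39.3 CPM with DMSO and 39.6 and 37.3 CPM with NEDD8i (log2 fold change -0.10, SE 0.27, 95% interval -0.72 to 0.52). Cul3, the cullin of that ligase, was at 55.8 and 62.6 CPM with DMSO and 52.5 and 65.6 CPM with NEDD8i (log2 fold change -0.0044, SE 0.28), and Bach1, a repressor that competes at the same DNA elements, had a log2 fold change of 0.19 ± 0.33 (SE). Among the small MAF partners, Maff was at 5.98 and 3.25 CPM with DMSO and 12.5 and 11.4 CPM with NEDD8i (log2 fold change 1.35, SE 0.43, adjusted p in edgeR = 0.173), and Mafg had a log2 fold change of 0.39 ± 0.29 (SE). Fbxw11, a subunit of another ligase that targets NRF2, was higher in both NEDD8i libraries (log2 fold change 0.95, SE 0.31, adjusted p in edgeR = 0.178). Dpp3, of the same list and named after its value was seen, was lower in both (log2 fold change -0.91, SE 0.31, adjusted p in edgeR = 0.196).

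Other redox and detoxification genes were read from 5 further lists. Over these lists and the control genes 89 of 113 genes were tested, and Mt1, a metallothionein that binds zinc and copper, was the only one to pass (1.12%, against 0.782% of all tested genes). Mt1 rose from 147 and 109 CPM in DMSO to 511 and 398 CPM with NEDD8i, which gave a log2 fold change of 1.83 ± 0.33 (SE; adjusted p in edgeR = 0.0494). The call was a near one and was lost in 8 of 14 alternatives, among them the fits without NEDD8i replicate 1 (adjusted p = 0.397) and without NEDD8i replicate 2 (adjusted p = 0.17). At an unadjusted p under 0.05 there were 18 of the 89 genes (20.2%, against 16.5% of all tested genes), among them 3 of the control genes. Mt2 and Mt4 are named after their values were seen. Mt2 had a log2 fold change of 1.20 ± 0.47 (SE; adjusted p in edgeR = 0.248), and Mt4, the metallothionein of stratified epithelia, had -1.62 ± 0.33 (SE; adjusted p in edgeR = 0.0633).

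Among other glutathione and thioredoxin genes 0 of 20 tested passed, with a median of 0.21. Glrx (glutaredoxin) was at 4.98 and 7.58 CPM with DMSO and 16.2 and 19.3 CPM with NEDD8i (log2 fold change 1.50, SE 0.38, adjusted p in edgeR = 0.109), and Txnrd3 had a log2 fold change of 0.87 ± 0.30 (SE; adjusted p in edgeR = 0.199). The other glutathione S-transferases had 0 of 10 past the threshold and a median of -0.23, with Gstt3 at -1.71 ± 0.76 (SE) and Mgst3 at -0.99 ± 0.47 (SE). Other detoxification and NADPH genes had 0 of 21 and a median of -0.05. In that list Akr1b8, an aldo-keto reductase, was at 0.997 and 3.07 CPM with DMSO and 7.79 and 6.82 CPM with NEDD8i (log2 fold change 1.87, SE 0.59, adjusted p in edgeR = 0.170). Idh1, cytosolic isocitrate dehydrogenase and another source of NADPH, was at 30.8 and 11.5 CPM with DMSO and 5.20 and 7.06 CPM with NEDD8i (log2 fold change -1.79, SE 0.49, adjusted p in edgeR = 0.131).

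Slc7a11 is also a target of ATF4, the factor of the amino acid response, and 0 of 13 tested genes of that response passed, with a median of 0.34. Cebpb, a transcription factor that works with ATF4, was at 120.1 and 125 CPM with DMSO and 198 and 277 CPM with NEDD8i (log2 fold change 0.95, SE 0.31, adjusted p in edgeR = 0.180). Vldlr, a lipoprotein receptor gene in the same list, had a log2 fold change of 1.58 ± 0.55 (SE; adjusted p in edgeR = 0.198).

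Calls among these other genes also depended on the DMSO libraries, with 10 passing without DMSO replicate 1 and 16 without DMSO replicate 2. Without DMSO replicate 1, Mt2 passed with a log2 fold change of 1.94 (adjusted p in edgeR = 2.36e-06), as did Mt4 (-1.34), Maff (1.86) and Cebpb (0.91), while Idh1 was at -0.92 and Akr1b8 at 1.24. Without DMSO replicate 2, Idh1 (-2.30), Akr1b8 (2.87), Glrx (1.85), Txnrd3 (1.06), Gstt3 (-2.03), Mgst3 (-1.36) and Mt4 (-1.85) passed. All-gene shares in these fits were 10.4% and 10.7%, and 0 of these genes passed when NEDD8i replicate 1 or NEDD8i replicate 2 was left out.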

How the data were processed

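RNA from mouse skin was sequenced as 3′ tag libraries (QuantSeq FWD, per the labels' protocols). The authors deposited raw read counts per gene for 56953 genes, unnormalized. The submitters' processing notes list STAR, featureCounts and DESeq2. Their versions, the strand setting and the handling of reads with several matches are not given in the sources used here. The notes name GRCm38 and GRCm39, and only 2.7% of 52029 genes had the start of GENCODE M21 on GRCm38, so table coordinates are taken to be GRCm39. All sample columns matched a title, and 0 were unused.

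Genes were kept by filterByExpr (minimum count 10, minimum total 15) and tested with edgeR 4.0.16 in R 4.3.3, by the robust quasi-likelihood F test on TMM-scaled counts with group alone and Benjamini-Hochberg adjustment at 0.05. The median SE of a log2 fold change was 0.42. The SE is the fold change divided by the square root of F, and 95% intervals follow from it. A floor of 3 counts was 0.359 to 0.541 CPM per library. Intervals on counts cover counting error only. Promoter windows came from RefSeq on GRCm38.p6.

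All members are described, with full statistics for those at an unadjusted p under 0.05, Nfe2l2, Nqo1, Hmox1, Gclc, Gclm, Txnrd1, Srxn1, Slc7a11 and the member with most reads of each role. Of the pathway lists, genes past the threshold, otherwise the 2 of smallest p, and Keap1, Cul3, Bach1 and Mafg are named. The members and lists were chosen with earlier results of these data known. Markers were read for 11 cell types. Fits were tested on simulated data. Alternatives were DESeq2 1.42.0, limma-voom (limma 3.58.1), RLE factors, no TMM, no filter, a fixed filter (10 counts and CPM above 1 in 2 libraries), no robust option, a replicate block, no ribosomal RNA genes, thinning to 2287839 counts and each library left out. A crossed block, the second element form and the member counts per alternative were added after seeing the data.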

Additional observations from a re-analysis of the deposited data

How the results depend on the processing

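Of the 32 members tested, 19 kept the sign of their log2 fold change in all 14 alternatives and 13 did not. Among the 448 member values recomputed, 393 stayed on the same side of the threshold with the same sign, 20 newly passed it and 35 changed sign. The cause of these changes was not tested.

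Members past the threshold (0 of 32 with edgeR) numbered 3 with DESeq2 and 4 with no low-count filter, where 392 and 703 genes passed in all, against 89. They numbered 0 to 7 with 1 library left out, where 44 to 1358 genes passed. The count over all genes was 27 with limma-voom, 47 with library sizes without TMM and 48 without the robust option. Of the other genes of the pathway 1 passed with edgeR, 3 with DESeq2, 8 with no filter, 0 to 16 with 1 library left out, and 0 with limma-voom, RLE factors, no TMM, the fixed filter, no robust option or no ribosomal RNA genes. Library sizes without TMM moved the median of all genes to -0.22 and that of the members to -0.082, which is 0.14 above all genes, against 0.12 with TMM.

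Equal replicate numbers did not pair the libraries by any label, and deviations of equal numbers from their group means had a correlation of -0.13 across 11388 genes. The replicate block gave 289 genes, 2 members (Srxn1 and Sqstm1) and 3 other pathway genes. The crossed block, added after seeing the data, gave 493 genes, 2 members and 4 other pathway genes.

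Signs changed mostly near 0. With library sizes without TMM the log2 fold change was -0.10 for Gstm1, -0.061 for Ugdh, -0.039 for Taldo1, -0.15 for Gclc, -0.15 for Gsta2 and -0.10 for Cbr3. After thinning it was -0.035 for Ugdh, -0.054 for Gclc, -0.0012 for Cbr3 and 0.014 for Cul3. With no filter it was 0.0024 for Tkt and 0.023 for Cul3, and Ftl1 was at 0.36 with limma-voom and 0.19 with the replicate block. With 1 library left out the ranges that crossed 0 were Abcc1 (-0.15 to 0.066), Bach1 (-0.14 to 0.63), Blvrb (-0.47 to 0.30), Cbr3 (-0.46 to 0.64), Cul3 (-0.19 to 0.16), Ftl1 (-1.26 to 2.86), Gclc (-0.26 to 0.32), Gpx2 (-0.063 to 2.05), Gsta2 (-0.24 to 0.49), Gstm1 (-0.23 to 0.48), Slc7a11 (-0.21 to 2.34), Taldo1 (-0.15 to 0.74), Tkt (-0.28 to 0.26), Txnrd1 (-0.24 to 1.36) and Ugdh (-0.12 to 0.40).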
